A study of Homo sapiens with 12 samples.

Results

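The genes described here are 38 members of the hypoxia response and of glycolysis, read together with ANGPTL4, in RNA from human embryoid bodies in which METTL14 was knocked down. The members are known target genes of the hypoxia-inducible factors and glycolytic enzymes, and the set was chosen in part by the measured rise of ANGPTL4 with knockdown in these libraries. The knockdown values of ANGPTL4 are therefore a description without a test, and knockdown counts are given over the other 37 members. All 38 were found among the 65969 identifiers of the table, and all 38 were among the 24898 genes with enough counts to be tested. Embryoid bodies are aggregates in which pluripotent stem cells differentiate in suspension, and METTL14 encodes a subunit of the writer of N6-methyladenosine on RNA. Total RNA of 12 libraries was sequenced to ask what a lower METTL14 level changes in such aggregates.

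H1 and MEL1, a pair of human embryonic stem cell lines, were transduced with lentiviral vectors that express a short hairpin RNA once doxycycline is added. Of the hairpins, SCR is the control and KD1, KD2 and KD3 are directed against METTL14. All groups, SCR included, were aggregated at 500 cells per microwell and received doxycycline at 2 µg/ml until harvest on day 10. In H1 there were 2 libraries each of SCR, KD1, KD2 and KD3. In MEL1 there were 2 libraries of KD1 and 1 each of SCR and KD2, and KD3 was not among the MEL1 libraries. The replicate numbers used below only name libraries. Nothing in the labels says that they were separate cultures, so the p-values measure only the spread between these libraries.

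Hypoxia-inducible factors pair an oxygen-labile alpha subunit, such as the products of HIF1A and EPAS1, with a stable beta subunit, the product of ARNT. With oxygen present, prolyl hydroxylases of the EGLN family mark the alpha subunit for degradation. With little oxygen the alpha subunit persists, and the dimer binds short DNA elements with an ACGTG or GCGTG core near its target genes, which include most glycolytic enzymes, glucose transporters and ANGPTL4. Pluripotent cells are known for a high rate of glycolysis that declines in many of their derivatives.

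The sequence upstream of the start site is shown for 6 members because these genes span the range of behaviour found here. They are ANGPTL4 itself, ANKRD37 and BHLHE40 with the largest fitted differences over both lines, and LDHA with the most ACGTG cores. The others are PDK1, the member with the steadiest test result, and PKM, which hardly differed in H1. Each run is the 250 bases before the annotated start, 5′ to 3′ on the gene's strand, from RefSeq on GRCh38.p14. Capitals mark ACGTG or GCGTG on either strand, so that they also read as CACGT or CACGC. The windows are chr19:8363905-8364154 (plus strand) for ANGPTL4, chr4:185396591-185396840 (plus) for ANKRD37, chr3:4979187-4979436 (plus) for BHLHE40, chr11:18394313-18394562 (plus) for LDHA, chr2:172555123-172555372 (plus) for PDK1 and chr15:72231191-72231440 (minus) for PKM.
ANGPTL4: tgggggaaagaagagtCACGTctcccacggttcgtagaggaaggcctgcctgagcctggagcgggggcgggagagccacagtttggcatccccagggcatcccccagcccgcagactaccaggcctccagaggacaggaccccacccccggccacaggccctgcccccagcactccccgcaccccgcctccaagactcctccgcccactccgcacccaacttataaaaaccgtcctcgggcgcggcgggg
ANKRD37: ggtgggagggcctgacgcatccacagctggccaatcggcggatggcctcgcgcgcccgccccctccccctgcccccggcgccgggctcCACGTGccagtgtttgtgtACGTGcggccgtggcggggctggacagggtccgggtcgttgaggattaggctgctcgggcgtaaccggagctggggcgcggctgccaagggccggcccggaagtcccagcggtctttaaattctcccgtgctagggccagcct
BHLHE40: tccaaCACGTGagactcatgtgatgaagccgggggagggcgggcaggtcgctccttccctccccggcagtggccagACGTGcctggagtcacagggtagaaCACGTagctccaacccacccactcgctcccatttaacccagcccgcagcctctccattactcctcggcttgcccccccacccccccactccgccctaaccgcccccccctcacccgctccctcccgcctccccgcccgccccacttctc
LDHA: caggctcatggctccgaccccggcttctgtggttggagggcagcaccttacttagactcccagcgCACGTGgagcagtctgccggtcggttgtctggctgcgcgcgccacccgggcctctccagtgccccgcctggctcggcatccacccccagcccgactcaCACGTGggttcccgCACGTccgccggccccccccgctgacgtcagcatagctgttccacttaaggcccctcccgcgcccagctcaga
PDK1: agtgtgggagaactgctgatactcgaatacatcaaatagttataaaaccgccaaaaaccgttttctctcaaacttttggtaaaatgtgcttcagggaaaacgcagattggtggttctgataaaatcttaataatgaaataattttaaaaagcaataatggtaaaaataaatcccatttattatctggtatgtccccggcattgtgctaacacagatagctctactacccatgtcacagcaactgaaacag
PKM: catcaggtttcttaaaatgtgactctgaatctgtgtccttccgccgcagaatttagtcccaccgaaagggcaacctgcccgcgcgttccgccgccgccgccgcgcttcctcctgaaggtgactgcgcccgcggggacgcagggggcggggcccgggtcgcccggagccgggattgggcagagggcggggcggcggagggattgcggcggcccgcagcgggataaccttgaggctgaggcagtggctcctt
ANGPTL4 has 1 core in this window, ANKRD37 has 3, BHLHE40 has 4 and LDHA has 5, while PDK1 and PKM have 0. The palindrome CACGTG holds a core on both strands and is counted on each. Promoters were matched for 35 of the 38 members. An ACGTG core was present in 19 of the 35 (54.3%), against 18.5% of 35116 promoter windows of the same length, and a GCGTG core in 13 (37.1%), against 32.2%. CACGTG was present in 6 of the 35 (17.1%), against 6.34%. The members' windows had a median GC content of 68.4%, against 58% over all windows, and both cores are themselves rich in G and C. A match of these letters is a description of the sequence and shows no binding.

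The MEL1 SCR library held 15963241 estimated counts and the other 11 held 36609628 to 43508287. METTL14 lay at 29.8 and 43.8 CPM (a gene's counts relative to the scaled total of its library) with H1 SCR, and at 8.90 to 17.7 CPM in the 6 H1 knockdown libraries. The MEL1 values were 49.9 CPM for SCR and 5.94 to 8.95 CPM for the 3 knockdown libraries. Libraries also differed in how strongly a gene's level followed the GC content of its transcripts: across 10408 genes of at least 10 CPM, Spearman's rho of a library's deviation with GC content ran from -0.649 (MEL1 SCR) to 0.624 (H1 KD1 replicate 2). Calls of members that were lost or gained once this trend and one on transcript length were removed are named with the comparison they belong to. Markers of pluripotent and neural cells, summed by list, were present in all libraries, but single genes differed widely between the lines. PAX6 had 0.204 to 2.92 CPM in MEL1 and 95.8 to 224 CPM in H1. POU5F1 had 240 to 879 CPM in MEL1 and 21.3 to 62.2 CPM in H1, and NANOG 32.8 to 81.9 CPM against 1.51 to 8.59 CPM. SOX2 had 233 to 428 CPM in MEL1 and 417 to 749 CPM in H1. Markers of heart, endoderm and liver were low, with MYH6, NKX2-5, SOX17, FOXA2 and ALB under 1 CPM throughout. Heart markers (4 genes) summed to 1.77 to 5.99 CPM. Those of endoderm and liver (6 genes) summed to 15.0 CPM with MEL1 KD2 and to 0.665 to 4.91 CPM in the other libraries. In bulk RNA, fewer cells of a type and less RNA per cell cannot be told apart.

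Members other than ANGPTL4 moved together between libraries of the same group, before any knockdown was considered. Of the H1 SCR libraries, replicate 1 was the higher for 36 of 37 members, PLOD2 being the exception, against 49.4% of all genes tested. The median log2 difference between them was 0.60 over the members and 0.00 over all genes, and 10 members differed by 2-fold or more. The H1 KD2 libraries stood further apart: replicate 2 was the higher for 36 of 37 members, CA9 being the exception, by a median log2 of 0.91 and by up to 2.91. H1 KD1 replicate 1 lay above replicate 2 for 36 of 37 members (median 0.47), MEL1 KD1 replicate 2 above replicate 1 for 33 (median 0.28) and H1 KD3 replicate 1 above replicate 2 for 29 (median 0.22). In the same libraries, 46.5% of all genes tested were higher for the KD2 pair, 51.9% for H1 KD1, 47.8% for MEL1 KD1 and 46.3% for H1 KD3. With the GC and length trend removed, the SCR pair still differed by a median log2 of 0.69 over the members, and the KD2 pair by 0.87. ANGPTL4 moved with the others in 4 of these pairs, with log2 differences of 0.45 (H1 KD1), 0.54 (H1 KD2), 0.24 (H1 KD3) and 0.96 (MEL1 KD1). Between the H1 SCR libraries it differed by only 0.14.

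**Figure D1:**
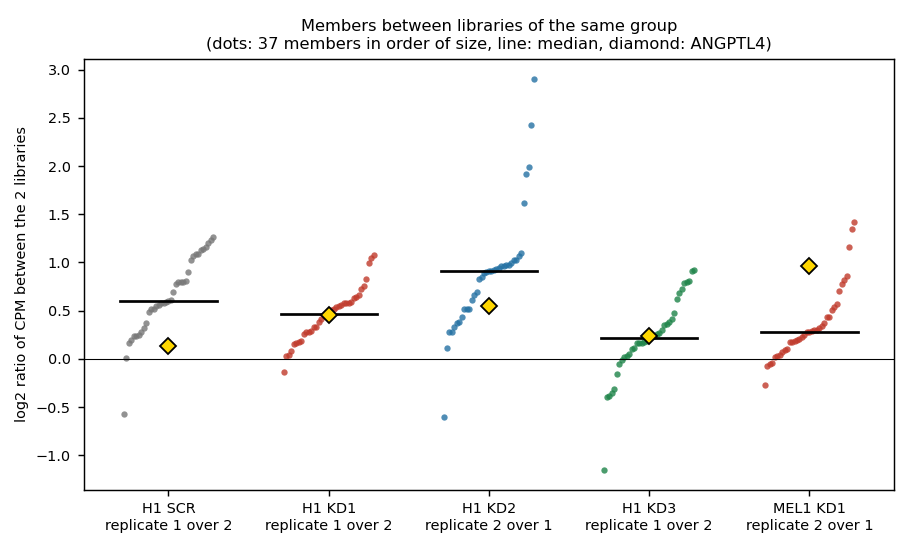
Log2 ratio of CPM between both libraries of a group, for the 5 groups that hold 2 libraries; dots are the 37 members in order of size, the black line is their median and the diamond is ANGPTL4. The members sit mostly above 0 in every pair, with medians from 0.22 in H1 KD3 to 0.91 in H1 KD2. Each ratio has the library with the higher member levels on top, so the side of 0 is set by that choice.

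ANGPTL4 encodes a secreted protein that inhibits lipoprotein lipase and is induced by low oxygen and by fatty acids. Its level with H1 SCR was 5.76 and 5.25 CPM, against 17.7 and 12.9 CPM with KD1, 9.56 and 14.0 CPM with KD2, and 11.4 and 9.69 CPM with KD3. In MEL1 it was 2.79 CPM with SCR, 6.50 and 12.7 CPM with KD1 and 8.41 CPM with KD2. All 9 knockdown libraries lay above the SCR libraries of their line. The fitted log2 difference, which is part of what chose the gene, was 1.33 (SE 0.25) over both lines and 1.47, 1.09 and 0.94 (SE 0.31 each) for KD1, KD2 and KD3 in H1.

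Comparisons that did not enter the choice of ANGPTL4 could be tested. Its level did not differ between KD1, KD2 and KD3 in H1 past the threshold (edgeR, adjusted p = 0.511). At matched treatments the MEL1 level lay below that of H1 (log2 difference -0.71, SE 0.22, adjusted p = 0.0213). That call was lost with the trend on GC content and length removed (-0.45, adjusted p = 0.0766) and without H1 KD1 replicate 1 (-0.63, adjusted p = 0.0525). Among its relatives, ANGPTL2 lay between 11.1 and 20.6 CPM, ANGPTL1 reached 2.63 CPM, and ANGPTL5, ANGPTL6, ANGPTL7 and ANGPTL8 stayed under 1 CPM.

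**Figure D2:**
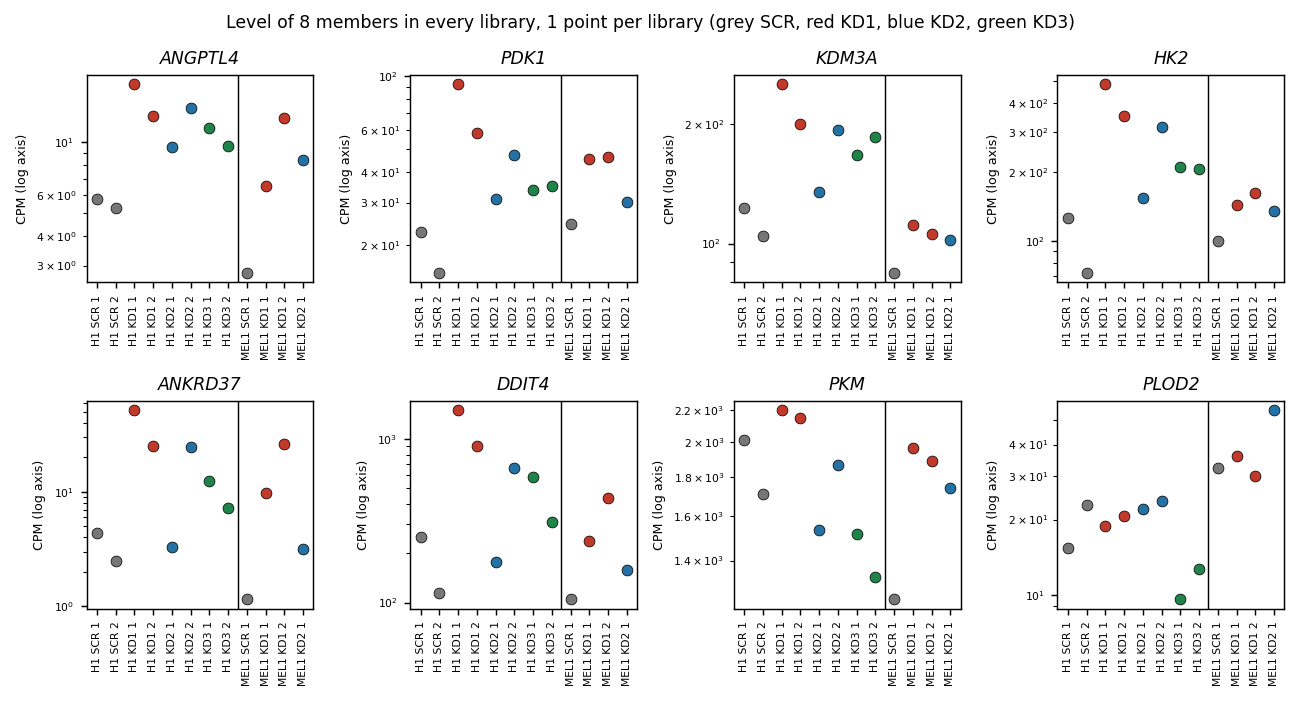
CPM on a log axis of 8 members in each of the 12 libraries, 1 point per library, with SCR in grey, KD1 in red, KD2 in blue and KD3 in green; the vertical line separates H1 from MEL1. ANGPTL4, PDK1, KDM3A and HK2 have all 9 knockdown points above the SCR points of their line, and ANKRD37 and DDIT4 have H1 KD2 replicate 1 among the SCR points. PLOD2 overlaps in both lines. PKM overlaps in H1, while its MEL1 knockdown points lie above the MEL1 SCR point.

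Over both lines, the other members leaned the same way as ANGPTL4 but none passed the test. The comparison of 9 knockdown with 3 SCR libraries called 0 of the 37 (edgeR quasi-likelihood test with Benjamini-Hochberg adjustment), where 0.213% of all genes tested were called (0.0562% higher and 0.157% lower). An unadjusted p under 0.05 was found for 28 of the 37, as for 3918 of the 24898 genes. All 37 log2 differences were above 0, from 0.00 (BNIP3L, below 0 with median-of-ratios scaling) to 2.80 (ANKRD37), with a median of 0.89. Over all genes tested, 55.1% were above 0 and the median was 0.05. DESeq2 called 16 of the 37, and a fit in which every hairpin and line had its own mean called 10. Both counts are given without the share of all genes called by the same fit. The smallest adjusted p values were those of INSIG2 (0.104), SLC2A1 (0.106), KDM3A (0.107) and EGLN1 (0.108).

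**Figure D3:**
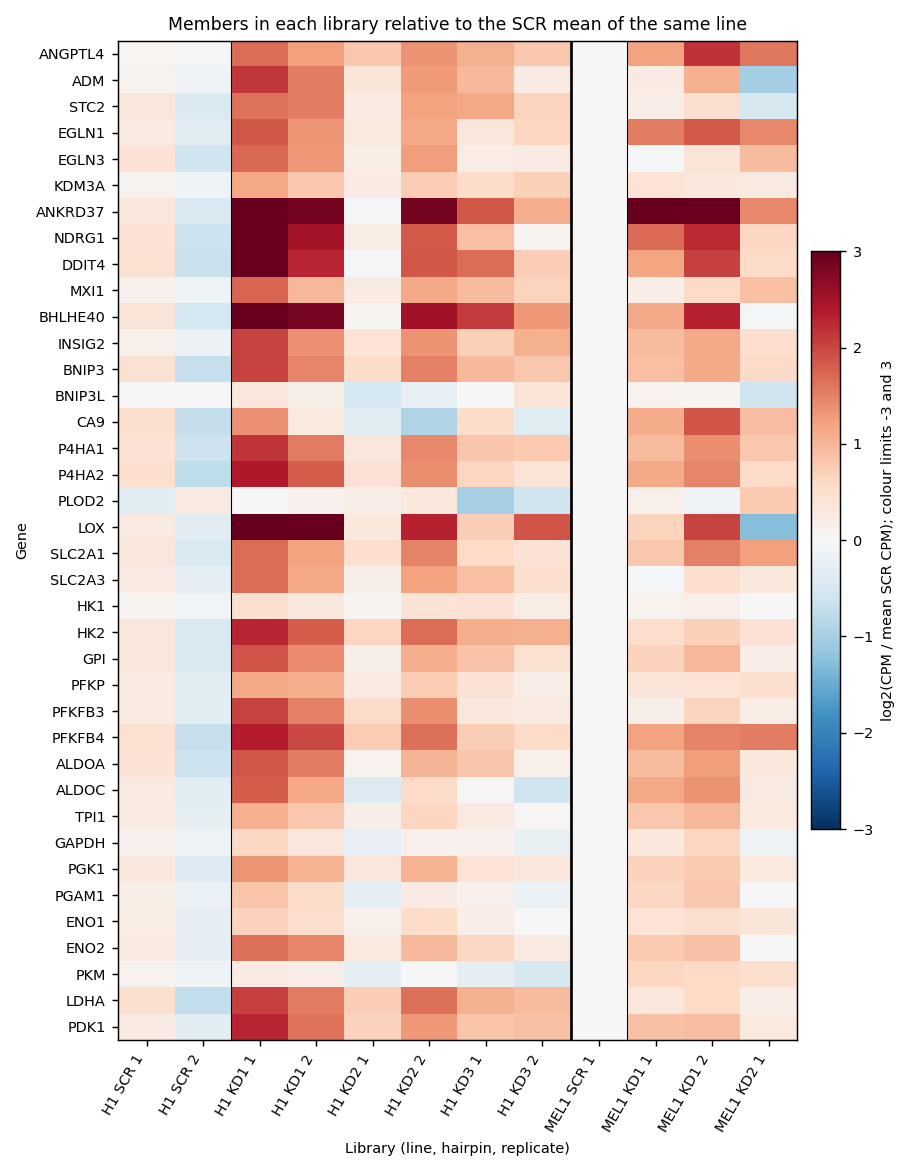
Log2 ratio of each library's CPM to the mean of the SCR libraries of its line, for the 38 members (rows) in the 12 libraries (columns); red is higher and blue is lower, with colours limited at -3 and 3. The H1 KD1 columns are the reddest, with median folds of 3.52 and 2.60, and the H1 KD2 columns differ from each other, at 1.18 and 2.30.

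Counts of libraries show how far the groups overlapped. In 15 of the 37 members all 6 H1 knockdown libraries lay above both H1 SCR libraries, as in 8.66% of all genes tested, and in 0 did all 6 lie below, as in 11.7%. For 25 members all 3 MEL1 knockdown libraries lay above the SCR library, against 31.7% of all genes. The 9 knockdown libraries lay above the SCR libraries of their line for 12 members, against 3.19% of all genes: EGLN1, KDM3A, MXI1, INSIG2, BNIP3, SLC2A1, HK2, PFKFB3, PFKFB4, PGK1, LDHA and PDK1. Library by library, the members above every SCR library of the line numbered 36 and 35 of 37 in the H1 KD1 libraries (38.2% and 36.8% of all genes), 15 and 33 with H1 KD2 (37% and 35.3%) and 30 and 24 with H1 KD3 (35.6% and 38.4%). In MEL1 they numbered 35 and 36 with KD1 (51.8% and 50.3% of all genes) and 28 with KD2 (54.7%). H1 KD2 replicate 1 thus had the fewest. These counts use CPM from which the GC trend was not removed. Those that involve MEL1 rest on its 1 SCR library, whose rho with GC content was -0.649. Relative to the SCR mean of the line, the median fold over the 37 members was 3.52 and 2.60 in the H1 KD1 libraries, 1.18 and 2.30 with KD2, and 1.57 and 1.32 with KD3. It was 1.61 and 1.89 in the MEL1 KD1 libraries and 1.25 with KD2. The H1 SCR libraries themselves stood at 1.21 and 0.794.

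Endothelial markers as a sum differed in the opposite direction in H1, mostly through 1 gene, KDR. Their summed level (6 genes) was 171 and 175 CPM with H1 SCR and 75.7 to 97.7 CPM in the 6 H1 knockdown libraries. KDR, the receptor of VEGFA, made up 153 and 157 CPM of the sum with H1 SCR and 59.6 to 88.2 CPM with knockdown. Over both lines KDR fell (log2 -0.89, SE 0.16, adjusted p = 0.0363). In MEL1 the sum was 159 CPM with SCR, 81.7 and 77.8 CPM with KD1 and 199 CPM with KD2. There, KDR had 99.0 CPM with SCR, 59.0 and 58.0 CPM with KD1 and 91.9 CPM with KD2. VWF had 41.0 CPM with SCR, 14.2 and 13.5 CPM with KD1 and 91.0 CPM with KD2. Pluripotency markers (6 genes) summed to 1500 and 1632 CPM with H1 SCR and to 1632 to 1950 CPM with knockdown, but did not move as one. POU5F1 fell in the H1 average (log2 -1.13, adjusted p = 0.0191), from 62.2 and 58.6 CPM to between 21.3 and 36.7 CPM, and NANOG fell (-0.96, adjusted p = 0.0325), while SOX2, which neural cells also express, rose (0.46, adjusted p = 0.0313). NANOG had 7.03 and 6.13 CPM with H1 SCR, 1.51 to 4.16 CPM with KD1 and KD2, and 8.59 and 6.80 CPM with KD3, so that its KD3 libraries did not lie below SCR. The summed level of the 6 genes in MEL1 was 3335 CPM for the SCR library, 3460 and 3763 CPM for KD1 and 2307 CPM for KD2. Single genes there did not repeat the H1 directions throughout. POU5F1 had 496 CPM with MEL1 SCR, 798 and 879 CPM with KD1 and 240 CPM with KD2. NANOG had 44.9 CPM with SCR, 77.0 and 81.9 CPM with KD1 and 32.8 CPM with KD2. SOX2 had 428 CPM with SCR, 329 and 323 CPM with KD1 and 233 CPM with KD2. Neural markers (7 genes) summed to 1142 and 1165 CPM with H1 SCR and 1166 to 1454 CPM with knockdown, and in MEL1 to 766 CPM against 560 to 688 CPM. Mesenchyme markers (6 genes) summed to 71.1 and 107 CPM with H1 SCR, to 178.5 and 188.9 CPM with KD1 and to 75.5 to 106 CPM with KD2 and KD3, and in MEL1 to 105 CPM with SCR against 175.5 to 180.1 CPM. Trophoblast markers (5 genes) summed to 19.3 to 25.7 CPM over the H1 libraries, and in MEL1 to 122 CPM for SCR and 64.7 to 186 CPM for knockdown. The part of these markers in the members' levels was not tested.

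In H1, where each hairpin has 2 libraries, KD1 gave the most calls among the members. The H1 KD1 comparison called 20 of the 37 members, all higher, where 4.25% of all genes were called higher and 6.83% lower, 11.1% in all. The median log2 difference over the 37 was 1.58. The 20 were ADM, STC2, EGLN1, KDM3A, MXI1, INSIG2, P4HA2, LOX, SLC2A3, HK2, GPI, PFKP, PFKFB3, PFKFB4, ALDOC, TPI1, PGK1, PGAM1, ENO2 and PDK1. The count rested on single libraries: 1 remained without H1 KD1 replicate 1 (PDK1), 2 without H1 SCR replicate 2 (PDK1 and ENO2) and 7 without H1 KD1 replicate 2. H1 KD1 replicate 1 was the highest of all 8 H1 libraries for 35 of the 37 members, and H1 SCR replicate 2 the lowest for 30, as they were for 15.4% and 17.7% of all genes tested. With the GC and length trend removed, 23 members were called: EGLN1 was lost and BNIP3L (0.46, adjusted p = 0.0287), HK1 (0.50, 0.0155), ALDOA (1.57, 0.0403) and ENO1 (0.63, 0.0226) were gained.

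KD2 and KD3 gave smaller median differences in the same direction. KD2 called 0 of the 37, where 1.54% of all genes were called (0.691% higher and 0.851% lower), with an unadjusted p under 0.05 for 14 and a median log2 of 0.78. KD3 called 0 of the 37, where 2.98% of all genes were called (1.19% higher and 1.79% lower), with 9 at an unadjusted p under 0.05 and a median of 0.53. DESeq2 called 5 of the 37 with each, a count without the share of all genes beside it. These comparisons share the SCR libraries with that of KD1. A test among the hairpins, with no SCR library in its contrast, called 1 of the 38 members, PLOD2, where 3.54% of all genes were called. The SCR libraries still entered its estimate of the spread. In this test 23 members had an unadjusted p under 0.05. Counts at an unadjusted p in this paragraph have no share of all genes beside them and are given as a description. With the GC and length trend removed, BNIP3L (adjusted p = 0.00710), PGAM1 (0.0372) and ENO2 (0.0213) were called as well. The fitted level was highest with KD1 in 36 of the 37 members other than ANGPTL4, PLOD2 being the exception, and in 34.3% of all genes tested. ANGPTL4, too, was highest with KD1.

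The average of the 3 hairpins in H1 rose past the threshold for 6 of the 37 members, where 2.23% of all genes were called higher and 4.93% lower, 7.16% in all. These were KDM3A (log2 0.72, SE 0.15), INSIG2 (1.20, SE 0.28), HK2 (1.47, SE 0.33), PFKP (0.65, SE 0.17), ENO2 (0.90, SE 0.21) and PDK1 (1.29, SE 0.23). KDM3A and PDK1 were called in 20 of 21 alternatives each and lost in the fit without H1 SCR replicate 2, where 0 of the 37 were called. The other 4 had adjusted p values from 0.0340 to 0.0483 and were called in 8 (PFKP) to 15 (ENO2) of the 21. With the GC and length trend removed, INSIG2 (1.25, adjusted p = 0.0698) and HK2 (1.34, adjusted p = 0.0737) were lost, and HK1 (0.39, adjusted p = 0.0225) and TPI1 (0.53, adjusted p = 0.0302) were gained. The count was 2 without H1 KD1 replicate 1, H1 KD3 replicate 1, or either MEL1 KD1 library, 3 without H1 KD1 replicate 2 or H1 KD3 replicate 2, and 15 without H1 KD2 replicate 1.

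**Figure D4:**
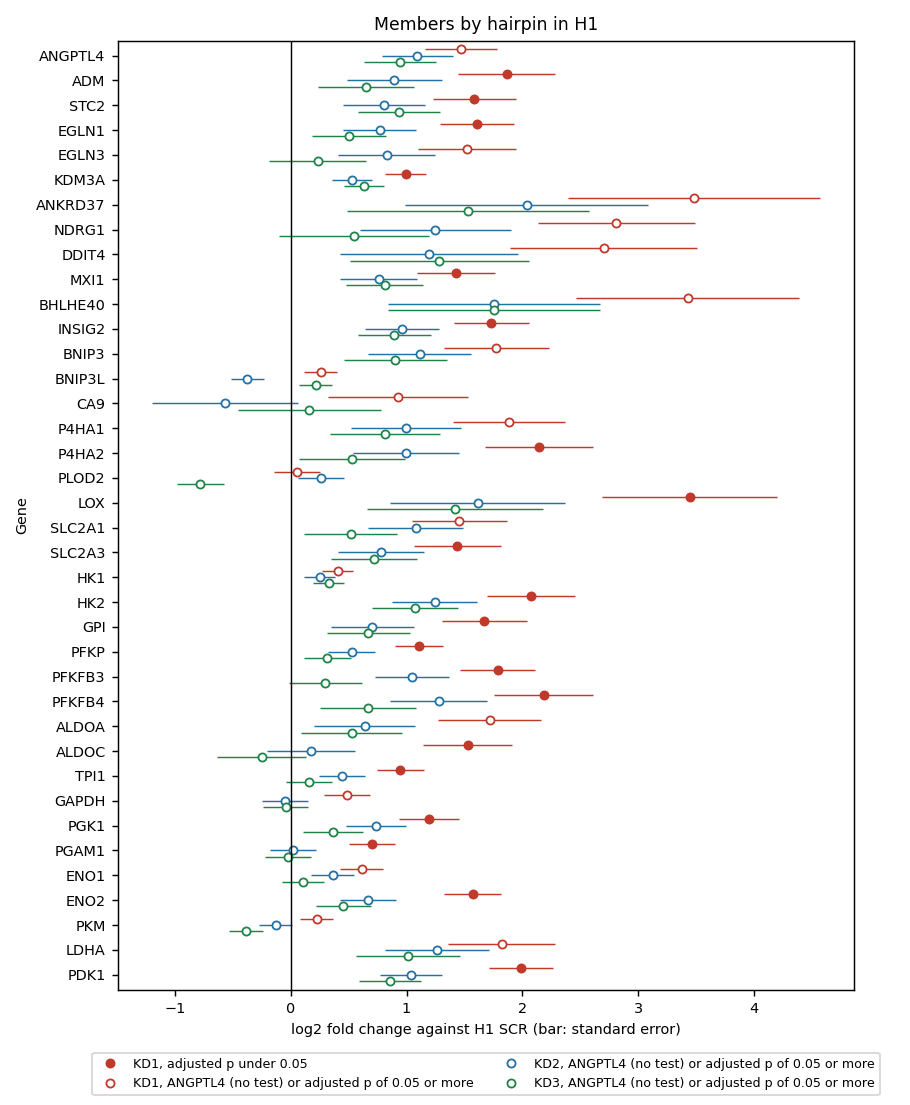
Fitted log2 fold change against H1 SCR for the 38 members and the 3 hairpins (points, with standard errors as bars); filled points passed an adjusted p of 0.05. ANGPTL4 has no test here and is drawn open. Filled points are all of KD1 and number 20 among the other 37 members, and the KD1 point is the furthest right in all members but PLOD2.

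By role, the secreted members besides ANGPTL4 were ADM and STC2. ADM encodes adrenomedullin, a vasodilator peptide, and STC2 a secreted glycoprotein. ADM lay at 23.1 and 20.2 CPM with H1 SCR, 94.4 and 63.1 CPM with KD1, 28.1 and 52.3 CPM with KD2, and 42.4 and 25.6 CPM with KD3. In MEL1, ADM lay at 34.3 CPM with SCR, 40.5 and 71.7 CPM with KD1 and 16.9 CPM with KD2. The H1 groups thus did not overlap, while the MEL1 KD2 library lay below its SCR library. Both secreted genes rose with H1 KD1, ADM by a log2 of 1.86 (SE 0.42, adjusted p = 0.0320) and STC2 by 1.58 (SE 0.36, adjusted p = 0.0305).

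EGLN1 and EGLN3 encode prolyl hydroxylases that limit the hypoxia response and are themselves its targets, and KDM3A encodes a histone demethylase. KDM3A was measured at 123 and 104 CPM with H1 SCR, 252 and 200 CPM with KD1, 135 and 193 CPM with KD2, and 167 and 186 CPM with KD3. In MEL1 it was at 84.4 CPM with SCR, 111 and 106 CPM with KD1 and 102 CPM with KD2. No knockdown library overlapped the SCR libraries of its line, and KDM3A rose with H1 KD1 by 0.99 (SE 0.17, adjusted p = 0.00853). EGLN1 went from 31.4 and 20.6 CPM with H1 SCR to between 31.7 and 93.9 CPM in the 6 knockdown libraries, and from 10.1 CPM with MEL1 SCR to 29.3, 36.0 and 27.7 CPM. Its log2 difference was 1.61 with H1 KD1 (SE 0.32, adjusted p = 0.0181), a call lost with the GC and length trend removed (1.69, adjusted p = 0.0671). EGLN3 had 1.53 (SE 0.42) and did not pass (adjusted p = 0.0602).

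The 6 members with roles in transcription and signalling had the largest median difference of the roles with H1 KD1, at a log2 of 2.76. ANKRD37, an ankyrin repeat protein gene known chiefly as a hypoxia target, had 4.33 and 2.49 CPM with H1 SCR, 51.3 and 24.8 CPM with KD1, 3.30 and 24.7 CPM with KD2, and 12.5 and 7.21 CPM with KD3. In MEL1 it had 1.16 CPM with SCR, 9.77 and 26.2 CPM with KD1 and 3.17 CPM with KD2. H1 KD2 replicate 1 lay among the SCR libraries while replicate 2 was at the level of KD1 replicate 2. Its log2 difference with H1 KD1 was 3.48 with a standard error of 1.09, and it did not pass (adjusted p = 0.103).

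DDIT4, an inhibitor of mTORC1 signalling, showed the same picture at a higher level. It had 253 and 115 CPM with H1 SCR, 1492 and 902 CPM with KD1, 176 and 666 CPM with KD2, and 587 and 309 CPM with KD3, and in MEL1 105 CPM with SCR, 239 and 435 CPM with KD1 and 157 CPM with KD2. BHLHE40, a transcriptional repressor, had 9.12 and 4.88 CPM with H1 SCR, 100 and 50.3 CPM with KD1, 7.40 and 39.9 CPM with KD2, and 30.0 and 17.2 CPM with KD3. For both genes the KD2 libraries lay on either side of the higher SCR library, and neither passed with H1 KD1 (DDIT4 2.70, SE 0.81, adjusted p = 0.0920; BHLHE40 3.43, SE 0.96, adjusted p = 0.0784). NDRG1, a gene of stress response and differentiation, had 2.81 (SE 0.68, adjusted p = 0.0514).

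MXI1, which encodes an antagonist of MYC, and INSIG2, which encodes a protein that restrains sterol synthesis, differed less but passed with H1 KD1. INSIG2 had 17.2 and 13.8 CPM with H1 SCR, 62.8 and 40.4 CPM with KD1, 20.7 and 39.7 CPM with KD2, and 25.4 and 32.3 CPM with KD3, and in MEL1 12.9 CPM with SCR, 24.8 and 28.6 CPM with KD1 and 18.3 CPM with KD2. None of its 9 knockdown libraries overlapped SCR. It rose by 1.73 (SE 0.32, adjusted p = 0.0138) with H1 KD1, and MXI1 by 1.42 (SE 0.34, adjusted p = 0.0335).

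BNIP3 and BNIP3L encode related receptors of mitophagy. BNIP3 had 126 and 57.0 CPM with H1 SCR, 372 and 253 CPM with KD1, 134 and 262 CPM with KD2, and 180 and 161 CPM with KD3, without overlap, and in MEL1 124 CPM with SCR against 232, 272 and 185 CPM. BNIP3L had 139 and 138 CPM with H1 SCR, 175 and 156 CPM with KD1, 96.6 and 117 CPM with KD2, and 140 and 182 CPM with KD3. Its groups lay on both sides of SCR. Neither passed with H1 KD1, at log2 differences of 1.77 (SE 0.45, adjusted p = 0.0537) and 0.26 (SE 0.14, adjusted p = 0.278). CA9, a carbonic anhydrase and a widely used marker of hypoxia, was scarce, at 0.254 to 1.24 CPM over the 12 libraries, and its H1 knockdown libraries lay above, between and below the SCR libraries.

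Of the collagen-modifying members, P4HA1 and P4HA2 encode collagen prolyl hydroxylases, PLOD2 a collagen lysyl hydroxylase and LOX the lysyl oxidase that cross-links collagen. P4HA2 rose with H1 KD1 by 2.14 (SE 0.47, adjusted p = 0.0278). LOX rose by 3.45 (SE 0.76, adjusted p = 0.0199) from a low level, with 0.333 and 0.218 CPM for H1 SCR against 3.87 and 2.18 CPM. P4HA1 had 1.88 (SE 0.48, adjusted p = 0.0562). PLOD2 lay at 15.4 and 22.8 CPM with H1 SCR, 18.9 and 20.7 CPM with KD1, 22.0 and 23.8 CPM with KD2, and 9.59 and 12.6 CPM with KD3. Only KD3 lay below both SCR libraries.

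The PLOD2 effect differed between the H1 hairpins (adjusted p = 0.0378): the KD3 level was lower than that of KD1 by a log2 of -0.83 and than that of KD2 by -1.04. The call was lost without any 1 of the 6 H1 knockdown libraries, with adjusted p from 0.0746 to 0.164, and kept in the other alternatives. With the GC and length trend removed KD3 was again the lowest, while the order of KD1 and KD2 turned (KD2 minus KD1 was 0.21 with the trend and -0.12 without it). Against SCR, KD3 had -0.78 (SE 0.20, adjusted p = 0.0651), and -0.96 with an adjusted p of 0.00185 once the GC and length trend was removed.

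Glucose enters through the transporters encoded by SLC2A1 and SLC2A3. SLC2A1 had 746 and 427 CPM with H1 SCR, 1860 and 1356 CPM with KD1, 825 and 1650 CPM with KD2, and 888 and 791 CPM with KD3, and in MEL1 290 CPM with SCR, 507 and 828 CPM with KD1 and 687 CPM with KD2. All 9 knockdown libraries were above SCR, some by little. SLC2A3 rose with H1 KD1 by 1.44 (SE 0.38, adjusted p = 0.0466), and SLC2A1 had 1.46 (SE 0.41, adjusted p = 0.0630). In MEL1, SLC2A3 lay at 2168 CPM with SCR and 2078, 3088 and 2693 CPM with knockdown.

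The first steps of glycolysis, from the hexokinases to triosephosphate isomerase, had 7 of 9 members called higher with H1 KD1, where 4.25% of all genes were. HK2, the inducible hexokinase, lay at 126 and 72.5 CPM with H1 SCR, 486 and 352 CPM with KD1, 154 and 315 CPM with KD2, and 211 and 207 CPM with KD3, and in MEL1 at 99.6 CPM with SCR, 144 and 163 CPM with KD1 and 135 CPM with KD2. No knockdown library reached down to SCR, and HK2 rose with H1 KD1 by 2.08 (SE 0.38, adjusted p = 0.0173). HK1, the widely expressed hexokinase, had 106 and 94.1 CPM with H1 SCR and 105 to 140 CPM with knockdown, and did not pass (0.41, SE 0.14, adjusted p = 0.0788). Per kilobase of transcript, the ratio of HK2 to HK1 was 0.534 and 0.827 in the H1 SCR libraries and 1.02 to 2.41 in the H1 knockdown libraries when the longest transcripts set the length. With median transcript lengths it stayed under 1 throughout, so which hexokinase was the more abundant depends on the transcripts counted.

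PFKP, a phosphofructokinase, had 48.7 and 32.7 CPM with H1 SCR, 89.0 and 86.3 CPM with KD1, 48.2 and 69.0 CPM with KD2, and 54.7 and 46.5 CPM with KD3, so KD2 and KD3 each overlapped SCR in 1 library. PFKFB3 and PFKFB4 make and remove the fructose bisphosphate that activates phosphofructokinase. Both rose with H1 KD1, PFKFB3 by 1.79 (SE 0.33, adjusted p = 0.0147) and PFKFB4 by 2.18 (SE 0.43, adjusted p = 0.0227). In both genes all 9 knockdown libraries lay above SCR, some by little. PFKFB3 had 64.3 and 62.2 CPM with H1 KD3, against 61.6 CPM in the higher H1 SCR library. GPI (1.67), ALDOC (1.53) and TPI1 (0.95) also rose, while ALDOA had 1.72 (SE 0.45, adjusted p = 0.0514). ALDOA exceeded ALDOC per kilobase in every library, by ratios of 15.7 to 34.1 in H1 and 7.26 to 8.64 in MEL1 with the longest transcripts.

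Members of the later steps, from GAPDH to pyruvate kinase, had smaller differences: 3 of 6 were called higher with H1 KD1, beside the same 4.25%, and their median log2 difference was 0.66, against 1.67 over the 9 members of the first steps. ENO2, the neuronal enolase, had 185 and 127 CPM with H1 SCR, 492 and 434 CPM with KD1, 192 and 304 CPM with KD2, and 240 and 187 CPM with KD3. In MEL1, ENO2 had 272 CPM with SCR, 467 and 497 CPM with KD1 and 271 CPM with KD2. The H1 groups came close but did not overlap, the MEL1 KD2 library lay at the SCR level, and ENO2 rose with KD1 by 1.57 (SE 0.24, adjusted p = 0.00690). ENO1, the ubiquitous enolase, had 0.61 (SE 0.18, adjusted p = 0.0558). The ratio of ENO1 to ENO2 per kilobase was 12 and 12.5 in the H1 SCR libraries and 6.24 to 11.1 in the H1 knockdown libraries.

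PGK1 (1.20, SE 0.26, adjusted p = 0.0213) and PGAM1 (0.70, SE 0.20, adjusted p = 0.0450), which encode the kinase and the mutase of phosphoglycerate, rose with H1 KD1. GAPDH, often used as a reference gene, had 3219 and 2657 CPM with H1 SCR, 4488 and 3745 CPM with KD1, 2477 and 3205 CPM with KD2, and 3192 and 2503 CPM with KD3. PKM had 2012 and 1712 CPM with H1 SCR, 2201 and 2153 CPM with KD1, 1535 and 1869 CPM with KD2, and 1516 and 1332 CPM with KD3. For both, KD2 and KD3 in H1 overlapped SCR or lay below it, and neither passed in any comparison with SCR. In MEL1, PKM had 1246 CPM with SCR, 1963 and 1888 CPM with KD1 and 1740 CPM with KD2. GAPDH there had 6686 CPM with SCR, 8332 and 10440 CPM with KD1 and 5982 CPM with KD2. GAPDH has 65 pseudogenes in the table, which held at most 0.0581% of the joint counts in a library. Of the 15 members with named pseudogenes the largest share was 3.86%, for EGLN1, and adding those counts left the H1 KD1 count at 20.

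At the fate of pyruvate, LDHA encodes lactate dehydrogenase and PDK1 the kinase that shuts off pyruvate dehydrogenase. PDK1 had 22.6 and 15.4 CPM with H1 SCR, 92.6 and 58.4 CPM with KD1, 30.9 and 47.1 CPM with KD2, and 33.9 and 35.1 CPM with KD3. In MEL1 it had 24.5 CPM with SCR, 45.2 and 46.3 CPM with KD1 and 30.2 CPM with KD2. All 9 knockdown libraries lay above SCR, the MEL1 KD2 library by the least. PDK1 rose with H1 KD1 by 1.99 (SE 0.27, adjusted p = 0.00499) and was called there in all 21 alternatives, while KD2 (1.04, adjusted p = 0.0992) and KD3 (0.86, adjusted p = 0.122) did not pass. LDHA, with 244 and 104 CPM for H1 SCR against 288 to 721 CPM for knockdown, had 1.82 with KD1 (SE 0.46, adjusted p = 0.0507).

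The cell lines differed in members in both directions, at a rate close to that of all genes. Levels of PAX6, POU5F1 and NANOG also differed between the lines, as given above, and their part in these differences was not tested. At matched treatments 20 of 38 members were called between MEL1 and H1, where 49.1% of all genes were called (23% higher and 26.2% lower). In MEL1, 8 were higher: PLOD2, SLC2A3, HK1, PFKP, ALDOC, TPI1, GAPDH and ENO1. Another 12 were lower: ANGPTL4, EGLN1, KDM3A, NDRG1, MXI1, INSIG2, BNIP3L, P4HA1, SLC2A1, HK2, PFKFB3 and PFKFB4. The largest in each direction were SLC2A3 (1.17, SE 0.24, adjusted p = 0.00392) and NDRG1 (-1.71, SE 0.47, adjusted p = 0.0255). The ratio of SLC2A1 to SLC2A3 per kilobase was 0.865 to 1.33 in H1 and 0.161 to 0.322 in MEL1 with the longest transcripts. In the same way, HK1 was higher (0.89, SE 0.09, adjusted p = 8.97e-06) and HK2 lower (-0.75, SE 0.25, adjusted p = 0.0408) in MEL1. With the GC and length trend removed, HK2 (-0.53, adjusted p = 0.173), INSIG2 (-0.74, adjusted p = 0.0659) and P4HA1 (-1.02, adjusted p = 0.115) no longer passed, as with ANGPTL4, and ENO2 did (0.38, adjusted p = 0.0280).

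Whether knockdown acted differently in the lines was tested for the hairpins present in both. For 0 of the 37 members was the effect of these hairpins called as different in MEL1, where 0.598% of all genes were called (0.454% higher and 0.145% lower). An unadjusted p under 0.05 was found for 5, a count without the share of all genes beside it, and DESeq2 called 0. The median log2 difference was -0.45, MEL1 minus H1, beside 0.11 over all genes tested. The MEL1 side rests on 1 SCR library of lower depth, whose spread was taken from the other groups.

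Genes of the same and of neighbouring pathways outside the 38 were read from 6 lists. Of 11 genes that encode or regulate the hypoxia-inducible factors, 0 were called over both lines and 0 in the H1 average, with medians of -0.01 and 0.01. HIF1A lay between 126 and 222 CPM, with a log2 difference of -0.18 (SE 0.16, adjusted p = 0.644) over both lines. With H1 KD1, 11.1% of all genes were called. There HIF3A rose by 0.97 (adjusted p = 0.0108). EPAS1 fell by 0.99 (adjusted p = 0.0490) and ARNT2 by 0.45 (adjusted p = 0.0368). The hairpins differed. EPAS1 was scarce, at 3.07 and 2.68 CPM with H1 SCR, 4.58 and 4.66 CPM with KD2, and 2.18 and 1.12 CPM with KD3. ARNT2 had 69.1 and 72.4 CPM with SCR, 86.1 and 76.7 CPM with KD2, and 65.7 and 65.8 CPM with KD3. HIF3A had 43.3 and 28.2 CPM with SCR and 40.6 to 49.9 CPM with KD2 and KD3.

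Of 25 other targets of these factors, 7 rose in the H1 average, where 2.23% of all genes were called higher, and the median of the list was 0.62, beside 0.01 over all genes. IGFBP3, which binds insulin-like growth factors, had 37.4 and 31.2 CPM with H1 SCR and 67.4 to 125 CPM in the 6 knockdown libraries, without overlap, and rose by 1.47 (SE 0.16, adjusted p = 0.00168). Also higher were RORA (1.38), FUT11 (1.01), WSB1 (0.90), ERO1A (0.62), KDM4B (0.62) and KDM4C (0.42). HMOX1, which encodes a heme oxygenase, fell by 1.04 (adjusted p = 0.0193) and CA12, a carbonic anhydrase, by 0.97 (adjusted p = 0.0143). Over both lines the list's median was 0.53 and 0 of its genes were called higher. VEGFA, the angiogenic factor, had 113 and 62.4 CPM with H1 SCR, 506 and 322 CPM with KD1, 112 and 299 CPM with KD2, and 218 and 154 CPM with KD3. Its KD2 libraries, too, lay on either side of the higher SCR library, and it did not pass with KD1 (2.24, adjusted p = 0.0595).

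Enzymes of glucose metabolism outside the 38 did not lean upward. Of 24 tested, which include LDHB, PFKL, PFKM and the pentose phosphate enzymes, 0 were higher and 2 lower in the H1 average, PDHB (-0.38, adjusted p = 0.0268) and TALDO1 (-0.40, adjusted p = 0.0313), and their median was -0.10. The share of all genes called lower there was 4.93%. Over both lines 0 were called. Of 16 tested genes for other angiopoietin-like proteins, lipases and the fatty acid receptors that can induce ANGPTL4, 0 were called in either comparison, with medians of 0.34 and 0.15. Glucocorticoid targets (9 genes) included 2 that fell in the H1 average, FKBP5 (-0.44) and SGK1 (-0.77), and the amino acid stress list (12 genes) 1, PSAT1 (-0.47), and neither list had a gene called over both lines. With lists this short, 1 or 2 calls beside a background of 4.93% of all genes called lower are given as a description.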

How the data were processed

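RNA of 12 libraries was sequenced as stranded total RNA. Per the labels, the deposited table holds 1 column for each library; the authors' deposited values are estimated counts per Ensembl gene, whose totals differ between libraries as unscaled values do, and of which 14.8% to 20.8% per library were fractional. The submitters' processing notes name fastp and kallisto; versions, transcript index, genome build and strand setting are not given in the sources used here. Reads that fit several similar genes are shared out by such estimates, which makes paralogs, pseudogenes and antisense genes uncertain. All 12 columns were mapped by the labels, and groups were taken from the cell line and treatment labels.

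Estimated counts were rounded, filtered with filterByExpr over the 7 groups and scaled by TMM; CPM are on that scale. Symbols came from a name table that held 59243 of the 65969 identifiers. Tests were robust quasi-likelihood F-tests in edgeR 4.0.16 (limma 3.58.1, R 4.3.3), adjusted by Benjamini-Hochberg over all 24898 genes, with calls made below an adjusted p of 0.05. The comparison over both lines had cell line as a covariate; all others came from a model of 7 group means. MEL1 was not tested against its single SCR library. Standard errors were derived from the log2 difference and the F statistic. Percentages of all genes are over the genes tested.

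The members and gene lists were chosen with earlier results of these data known. The rule for named genes took every member, METTL14, list genes called over both lines or in the H1 average, the other ANGPTL genes and the hypoxia-inducible factor subunits; VEGFA was chosen after its values were seen, and some genes under this rule are not reported here. Alternatives tried were scaling by median of ratios or upper quartile, no filter, a filter of 1 CPM in 3 libraries, a non-robust fit, DESeq2 1.42.0, counts of 153 named pseudogenes added to 15 members, H1 libraries by themselves, leaving out each library, and removal of a spline trend on GC content and length (5 and 4 degrees of freedom; GENCODE release 29 on GRCh38, values for 90.6% of tested genes and all 38 members). The fits were tested on simulated data. Promoter windows are RefSeq's on GRCh38.p14. Depth bears most on CA9 and LOX, which stayed at or under 3.87 CPM.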

Additional observations from a re-analysis of the deposited data

Results flagged for a closer look

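The response of PLOD2 differed between the H1 hairpins: in the test among KD1, KD2 and KD3, which uses no SCR library in its contrast, its adjusted p was 0.0378 (edgeR). KD3 was lower than KD1 by a log2 of -0.83 and lower than KD2 by -1.04, in 2 of 2 KD3 libraries. The other 37 members, ANGPTL4 included, did not pass this test. It called 3.54% of all genes tested, so 1 call among 38 members is given as a description. The PLOD2 call was lost when any 1 of the 6 H1 knockdown libraries was left out. No value of a member stood out from the rest of the 6 H1 knockdown libraries by Dixon's test, which was run on 38 genes.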

How the results depend on the processing

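No paired analysis was possible because the labels carry no replicate numbers. Under the other scalings and the trend removal, directions turned only for differences near 0: BNIP3L over both lines (median-of-ratios scaling), GAPDH and PGAM1 with H1 KD3 and PLOD2 between KD1 and KD2 (trend removed). Over both lines, 0 of 37 members were called under 20 of 22 alternatives, leaving out each library included, while DESeq2 called 16 and the group means 10. In the H1 average the count was 6, with 0 to 15 when single libraries were left out, 30 without a filter on low counts, 10 with the non-robust fit and 25 with DESeq2. For H1 KD1 it was 20, with 1 to 30 without single libraries, and 33 both without a filter and with DESeq2. KD2 gave 0, also in each fit that left out a library, 28 without a filter and 5 with DESeq2. KD3 gave 0, at most 1 without a single library, 22 without a filter, 1 with the GC and length trend removed and 5 with DESeq2. Between the hairpins the count of 1 became 0 to 8 without single libraries, 2 with median-of-ratios scaling, upper-quartile scaling or pseudogene counts, 4 with the 1 CPM filter or the trend removed, 3 with the non-robust fit, 35 without a filter and 17 with DESeq2. Without a filter, 12 members differed in effect between the lines, against 0, and 31 between MEL1 and H1, against 20 (14 to 23 without single libraries). Leaving out the only MEL1 SCR or MEL1 KD2 library gives no value for these comparisons of the lines. The share of all genes called under each alternative is not given here. These counts are therefore a description of the processing and not a result about the members. The cause of these differences was not tested. Groups of 1 or 2 libraries limit all of these counts, and a left-out library can leave 1 sample, which is then assumed to vary like the other groups.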
